A study of Homo sapiens with 4 samples.

Results

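Interferon-stimulated genes are the antiviral program that cells switch on after they sense viral nucleic acid or bind a secreted interferon. RNA sensors such as RIG-I and MDA5 act through adaptor proteins and IRF factors to induce interferons, and type I or type III interferon, bound to its receptor, activates JAK1 and TYK2. A complex that contains STAT2 and IRF9 then binds the interferon-stimulated response element in the promoters of these genes. The genes studied here were the 43 of a list given by gene symbol, which covers sensors, transcription factors and effector proteins. Of these, 42 had a row in the count table, which holds 20363 genes in all, and OAS1 was not analysed here. All 42 reached at least 10 raw counts in at least 2 libraries, as did 14970 of the 20363 genes.

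RNA was sequenced in 4 libraries from DAOY, a human medulloblastoma cell line. The ZNF521_DMSO and ZNF521_SAG libraries came from cells that overexpressed ZNF521, a zinc finger transcription factor, and the CTL_DMSO and CTL_SAG libraries from control cells. SAG is an agonist of Smoothened, the membrane protein that transmits Sonic Hedgehog signals, and DMSO is its vehicle. The total count was 13366535 in ZNF521_DMSO, 13468912 in CTL_DMSO, 16314685 in ZNF521_SAG and 12294833 in CTL_SAG. Each condition had 1 library and no replicate, so p values rest on the spread left after both factors were fitted, which may be technical and also holds any interaction of the factors. ZNF521 was delivered by a lentiviral vector that also encodes EGFP, under a ubiquitin promoter, to cells sorted for EGFP. The labels call the controls WT, whereas the study describes controls with the empty vector, and which of them was sequenced was not settled here. With WT controls, an effect of the vector and one of ZNF521 cannot be told apart.

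The label checks held. ZNF521 had 2013 normalized counts in ZNF521_DMSO against 714 in CTL_DMSO, and 2072 in ZNF521_SAG against 751 in CTL_SAG. GLI1, a target of Hedgehog signalling, had 318 in ZNF521_SAG against 44.2 in ZNF521_DMSO, and 324 in CTL_SAG against 75.4 in CTL_DMSO. CTL_DMSO stood apart from the other libraries. Its log2 deviations from the gene means had an SD of 0.27, against 0.13 to 0.14 in the others, in the 9161 genes that averaged 200 normalized counts or more. Of 11 markers of the granule lineage and of medulloblastoma, 8 passed the floor on low counts, among them VIM and NES, while ATOH1, BARHL1 and NEUROD1 had 0 to 10 raw counts. Of the 12 immune markers in the table, 10 stayed under 10 counts in every library, and the summed normalized count of the 12 was 192 in ZNF521_DMSO against 215 in CTL_DMSO, and 146 in ZNF521_SAG against 178 in CTL_SAG. IL3RA (104 to 128) and CSF1R carried this sum. CSF1R had 30.9 in ZNF521_DMSO against 56.3 in CTL_DMSO, and 16.03 in ZNF521_SAG against 36.1 in CTL_SAG (log2 fold change -1.01, unadjusted p = 0.00699, adjusted p = 0.789 by edgeR), and its part in the results was not tested.

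To look for this element, promoter sequences from RefSeq (GRCh38.p14) were searched for 2 copies of the half-site GAAA with 2 bases of any kind between them, on both strands. The window ran from 250 bases before to 50 bases after the start of transcription, and matches that overlap each other were counted separately. A promoter was found for 33 of the 42 genes, and 22 of these (66.7%) held the motif, 15 of them 2 or more times. Of all 27305 promoters in the set 3.65% held it, and of the 11460 tested genes with a promoter 2.89%. The genes not matched were IFIT2, IFITM2, MX2, OAS2, OASL, DHX58, USP18, IRF7 and TRIM22. A match describes these letters and does not show that a factor was bound. The stretches of 6 promoters with a match are shown as examples. Of these genes, 5 had ZNF521 over CTL ratios above 1 with DMSO and with SAG, and BST2 had ratios in opposite directions. Promoters of other genes with high ratios are not shown, among them RTP4, with matches, and SAMD9L, without a match. Capitals mark the half-sites and the bases between them, and each stretch is written 5′ to 3′ on the strand of the gene, where a match on the other strand reads TTTC.
IFIT1 (chr10:89392487-89392549, strand +): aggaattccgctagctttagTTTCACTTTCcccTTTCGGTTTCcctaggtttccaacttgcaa
DDX60 (chr4:168318776-168318860, strand -): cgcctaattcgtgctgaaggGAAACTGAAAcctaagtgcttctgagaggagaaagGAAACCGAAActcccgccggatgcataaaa
SAMD9 (chr7:93118086-93118135, strand -): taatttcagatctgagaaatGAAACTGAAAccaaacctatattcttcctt
ISG15 (chr1:1013364-1013419, strand +): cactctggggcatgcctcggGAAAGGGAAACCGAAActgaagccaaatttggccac
IFI6 (chr1:27672256-27672368, strand -): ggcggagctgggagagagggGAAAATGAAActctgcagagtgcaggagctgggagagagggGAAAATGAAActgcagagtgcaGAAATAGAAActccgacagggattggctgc
BST2 (chr19:17405725-17405780, strand -): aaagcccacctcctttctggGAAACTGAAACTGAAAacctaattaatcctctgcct
IFIT1 held its 2 matches on the opposite strand, and the other 5 genes on their own strand. In ISG15 and in BST2, 3 half-sites in a row made 2 overlapping matches. IFI6 held 3 matches, and SAMD9 held 1.

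All 42 genes were detected in all 4 libraries, at levels that differed widely. Together they took 1.24% of all counts in ZNF521_DMSO against 0.924% in CTL_DMSO, and 1.07% in ZNF521_SAG against 0.925% in CTL_SAG. Per kilobase of the canonical transcript, the highest mean normalized counts were those of IFI27 (30139), ISG15 (23250.1), IFITM3 (22238), IFI6 (12299), MX1 (5002) and BST2 (3536). The ranges of ISG15 (19211 to 31136) and IFITM3 (19822 to 26333) over the 4 libraries overlapped, so their order was not resolved. IFITM1, IFITM2 and IFITM3 are related neighbours, and how reads were divided among them is not given in the sources used here. At the other end lay SAMD9L, with a mean of 66.4 per kilobase, and IRF9 with 73.4.

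Most of the 42 genes had more transcript in ZNF521 cells, and their summed ratio was larger with DMSO than with SAG. Summed over the 42 genes, ZNF521_DMSO had 1.37 times the normalized count of CTL_DMSO (exact 95% interval 1.36 to 1.38), and ZNF521_SAG had 1.15 times that of CTL_SAG (1.14 to 1.16). These intervals, by Clopper-Pearson, cover counting error only. In bulk RNA, more cells that express a gene and more of its RNA per cell cannot be told apart. The median ratio of a gene was 1.36 in the DMSO pair, and 1.13 in the SAG pair, where the medians over all genes tested were 1.02 and 0.998. In each pair 36 of the 42 genes had a ratio above 1, where 52.6% of all genes had one with DMSO and 49.4% with SAG, and 31 had it in both (26.0% of all genes). The counting interval lay wholly above 1 for 34 of the 42 genes in the DMSO pair (25.4% of all genes) and for 24 in the SAG pair (9.5%). It lay wholly below 1 for IRF9 in the DMSO pair (20.8% of all genes) and for BST2 and IRF1 in the SAG pair (10.2%). Such intervals are narrower for abundant genes, and many of all genes have low counts. For 36 of the 42 genes, and for 53.1% of all genes, the ratio was larger in the DMSO pair, which holds the CTL_DMSO library that stood apart. Its part in the larger ratios was not tested.

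**Figure D1:**
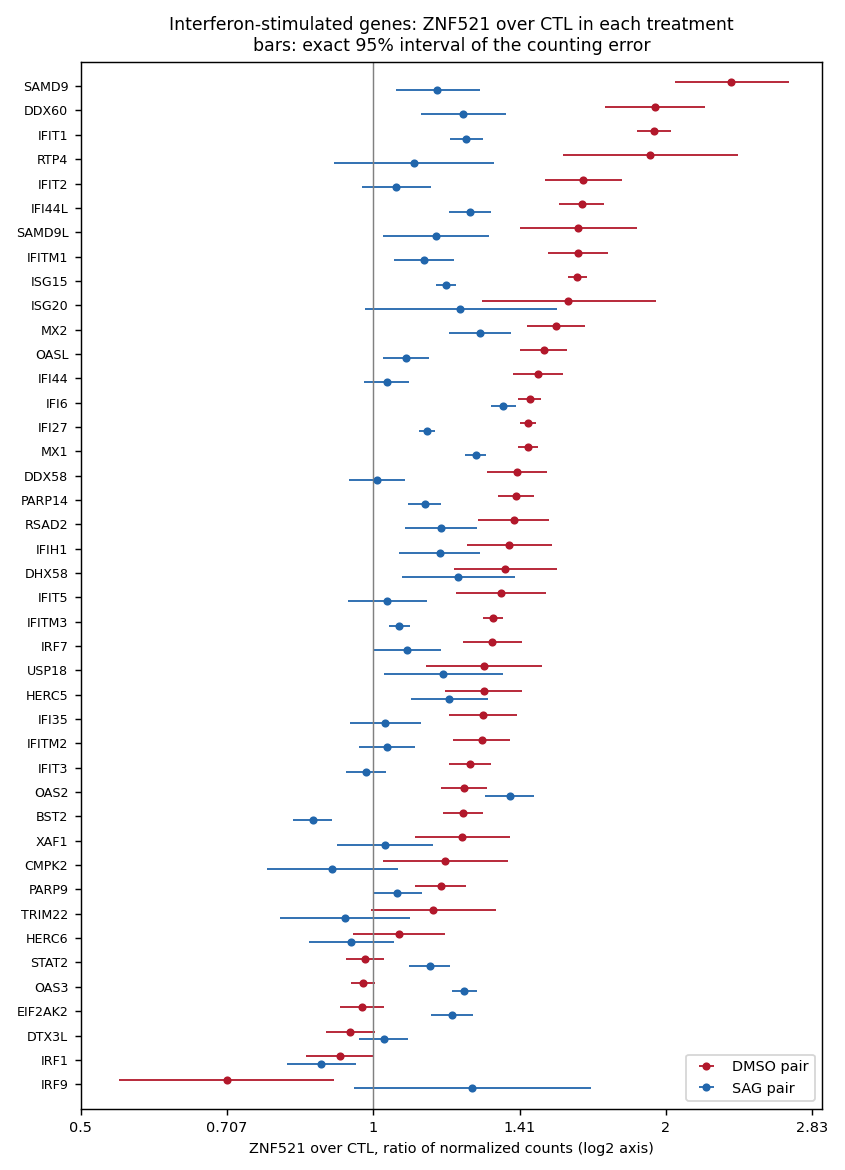
Ratio of normalized counts, ZNF521 over CTL, for each of the 42 genes (rows) in the DMSO pair of libraries and in the SAG pair. The horizontal axis is on a log2 scale and bars are exact 95% intervals of the counting error. In the DMSO pair the ratios ran between 0.707 for IRF9 and 2.34 for SAMD9, and in the SAG pair between 0.866 for BST2 and 1.38 for OAS2.

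With treatment as a block, edgeR's quasi-likelihood test with Benjamini-Hochberg adjustment over 14970 genes called 1 gene (0.00668%) between ZNF521 and CTL, which was ZNF521 itself, and 0 of the 42 genes. DESeq2 and limma also called 0 of the 42. At an unadjusted p of at most 0.05, the threshold the study used, 17 of the 42 genes (40.5%) were higher in ZNF521 cells, where 2.36% of all genes were. On the lower side there were 0 of the 42, where 3.11% of all genes were. The fitted log2 fold change was above 0 for 38 of the 42 genes (90.5%) and for 49.4% of all genes, and its median was 0.30 over the 42 genes against -0.0034 over all genes. Both ZNF521 libraries lay above both CTL libraries for 28 of the 42 genes (66.7%) and for 13.3% of all genes. Only IRF1 lay below in both, or 2.38% of the 42 genes, where 13.0% of all genes did.

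**Figure D2:**
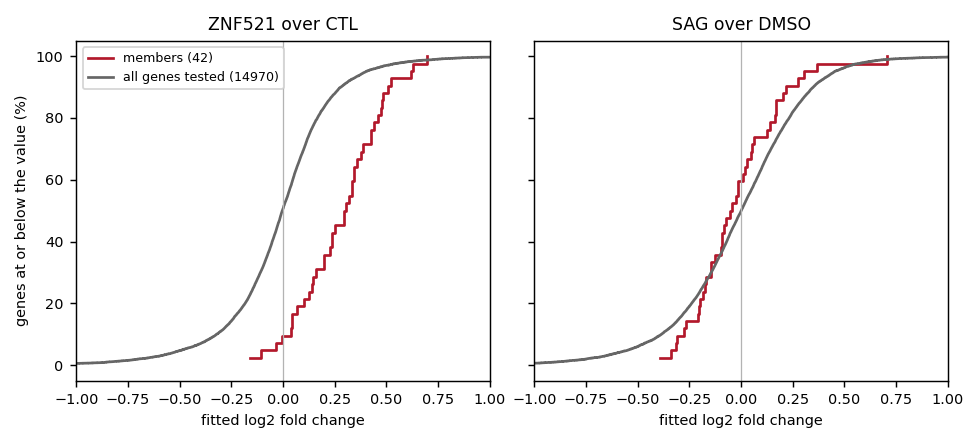
Cumulative distribution of the fitted log2 fold change (edgeR) for the 42 interferon-stimulated genes and for all 14970 genes tested, for ZNF521 over CTL on the left and SAG over DMSO on the right. The vertical axis gives the percentage of genes at or below a value. On the left the curve of the 42 genes is shifted to higher values, with a median of 0.30, and on the right its median is -0.05.

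These counts rest in part on single libraries, and genes of a shared pathway are not independent observations. The list was also chosen with earlier results of these data known. When CTL_DMSO was left out, 15 of the 42 genes were higher at an unadjusted p of at most 0.05 (2.46% of all genes), and 3 (0.174% of all genes) passed the adjusted threshold (IFI6, ISG15 and MX1, named after their values were seen). Without ZNF521_SAG the count was 7 (0.367% of all genes), and without ZNF521_DMSO it was 0 (0.18%). Without CTL_SAG it was 23 (14.1% of all genes), and 18 genes passed the adjusted threshold, as 15.6% of all genes did. The median log2 fold change of the 42 genes stayed between 0.22 and 0.37 over these 4 fits.

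Among the IFIT genes, whose proteins bind foreign RNA and hinder its translation, IFIT1 had the largest difference. IFIT1 had 7007 normalized counts in ZNF521_DMSO against 3604 in CTL_DMSO, and 5659 in ZNF521_SAG against 4541 in CTL_SAG. Both ZNF521 libraries were above both CTL libraries, with ratios of 1.94 and 1.25. Its log2 fold change was 0.63 (SE 0.18), with an unadjusted p of 0.004 and an adjusted p of 0.689 (edgeR). IFIT2, a partner of IFIT1, had 1288 in ZNF521_DMSO against 783 in CTL_DMSO, and 1163 in ZNF521_SAG against 1101 in CTL_SAG. The DMSO pair carried this difference, since the interval of the SAG ratio (0.972 to 1.15) included 1. IFIT5, which binds RNA with a triphosphate end, had 823 in ZNF521_DMSO against 608 in CTL_DMSO, and 889 in ZNF521_SAG against 860.4 in CTL_SAG. For IFIT3 the SAG ratio was 0.982. The exons of IFIT2 and IFIT3 overlap those of LIPA on the opposite strand, and the strand setting of the counting is not given in the sources used here.

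All 4 RNA sensors had a ratio above 1 in both pairs, as 26.0% of all genes did. Of the 4, 3 had an unadjusted p of at most 0.05 on the higher side, where 2.36% of all genes did. DDX60, a helicase linked to RIG-I signalling, had 841 in ZNF521_DMSO against 431 in CTL_DMSO, and 869 in ZNF521_SAG against 703 in CTL_SAG. CTL_DMSO was the low library, and the log2 fold change was 0.62 (SE 0.18, unadjusted p = 0.00416, adjusted p = 0.7 by edgeR). It was 0.29 without CTL_DMSO and 0.97 without CTL_SAG. IFIH1, which encodes the RNA sensor MDA5, had 955 in ZNF521_DMSO against 692 in CTL_DMSO, and 913 in ZNF521_SAG against 780.4 in CTL_SAG. DHX58, which encodes LGP2, a regulator of the other sensors, had 643 in ZNF521_DMSO against 470.4 in CTL_DMSO, and 489 in ZNF521_SAG against 400.3 in CTL_SAG. The groups did not overlap for either gene. DDX58, which encodes RIG-I, had a ratio of 1.41 in the DMSO pair and of 1.01 in the SAG pair.

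Of the 9 other antiviral effectors, 6 had an unadjusted p of at most 0.05 on the higher side, where 2.36% of all genes did. SAMD9, a restriction factor for poxviruses that also limits cell growth, had 735 in ZNF521_DMSO against 315 in CTL_DMSO, and 857 in ZNF521_SAG against 736 in CTL_SAG. CTL_DMSO alone was far below, and CTL_SAG lay just above ZNF521_DMSO, so the groups overlapped despite a log2 fold change of 0.69 (SE 0.21, unadjusted p = 0.00561 by edgeR). Without CTL_DMSO that value was 0.12, and without CTL_SAG it was 1.32. Its ratio was 2.34 (interval 2.04 to 2.68) with DMSO and 1.16 (1.05 to 1.29) with SAG. SAMD9L, its neighbouring paralog, had 554 in ZNF521_DMSO against 341 in CTL_DMSO, and 540.0 in ZNF521_SAG against 466 in CTL_SAG. In SAMD9L, too, CTL_DMSO was the lowest library.

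The Mx proteins are dynamin-like GTPases that trap viral components. MX1 had 17194 in ZNF521_DMSO against 11923 in CTL_DMSO, and 14804 in ZNF521_SAG against 11621 in CTL_SAG. MX2 had 2092 in ZNF521_DMSO against 1357 in CTL_DMSO, and 1665 in ZNF521_SAG against 1295 in CTL_SAG. In both genes the CTL libraries were close to each other and both ZNF521 libraries were higher, with log2 fold changes of 0.43 (SE 0.17) for MX1 and 0.48 (SE 0.15) for MX2. RSAD2, which encodes viperin, an enzyme that makes a chain-terminating nucleotide, had 1338 in ZNF521_DMSO against 959 in CTL_DMSO, and 1184 in ZNF521_SAG against 1008 in CTL_SAG. ISG20, an RNA exonuclease, had 249 in ZNF521_DMSO against 157 in CTL_DMSO, and 175 in ZNF521_SAG against 142 in CTL_SAG. ISG20 showed no overlap between the groups, but the interval of its SAG ratio (0.98 to 1.55) included 1. EIF2AK2, which encodes the kinase PKR, had a ratio of 0.973 with DMSO and of 1.21 with SAG. CMPK2, a mitochondrial nucleotide kinase whose gene overlaps RSAD2 on the opposite strand, had 1.19 with DMSO and 0.908 with SAG. TRIM22, an E3 ligase, had a log2 fold change of 0.04.

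**Figure D3:**
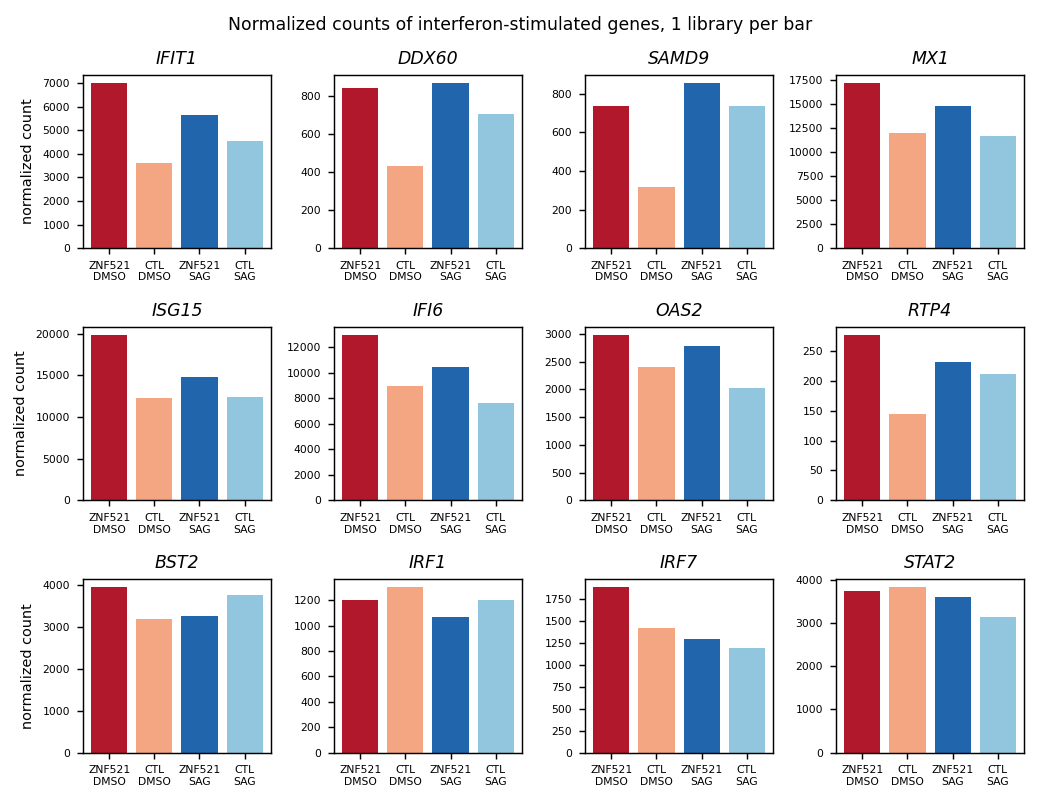
Normalized counts (vertical axes, linear and starting at 0) of 12 interferon-stimulated genes in the 4 libraries, 1 bar per library. In IFIT1, MX1, ISG15, IFI6, OAS2 and RTP4 both ZNF521 bars stand above both CTL bars, in SAMD9 the CTL_DMSO bar alone is low (315), and in BST2 the order of ZNF521 and CTL turns between the treatments.

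The oligoadenylate synthetases make the messenger that activates RNase L, except OASL, which lacks that activity and aids RIG-I. OAS2 had 2981 in ZNF521_DMSO against 2402 in CTL_DMSO, and 2791 in ZNF521_SAG against 2021 in CTL_SAG. OAS2 was the gene with the highest ratio in the SAG pair, at 1.38 (interval 1.30 to 1.46), above its ratio of 1.24 in the DMSO pair. Its log2 fold change was 0.38 (SE 0.15), with an unadjusted p of 0.0241 and an adjusted p of 0.893 (edgeR), and with each library left out in turn it lay between 0.25 and 0.52. OAS3 had ratios of 0.976 with DMSO and 1.24 with SAG, and OASL had 1.50 and 1.08.

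In the ISG15 system, ISG15 itself, a ubiquitin-like protein that is attached to newly made proteins and also secreted, differed most. ISG15 had 19834 in ZNF521_DMSO against 12237 in CTL_DMSO, and 14751 in ZNF521_SAG against 12419 in CTL_SAG. The CTL libraries were nearly equal, ZNF521_DMSO was the highest, and the log2 fold change was 0.46 (SE 0.18, unadjusted p = 0.0265, adjusted p = 0.893 by edgeR). It was 0.26 without ZNF521_DMSO and 0.67 without ZNF521_SAG. HERC5, the main ligase that attaches ISG15 in human cells, had ratios of 1.30 and 1.20 in the DMSO and SAG pairs, and USP18, which removes ISG15 and dampens the type I receptor, had 1.30 and 1.18. HERC6, which does the work of HERC5 in mice, had 707 in ZNF521_DMSO against 665 in CTL_DMSO, and 750.0 in ZNF521_SAG against 791 in CTL_SAG. HERC5 and HERC6 are neighbours on chromosome 4, and the promoter of HERC5 held 3 matches to the motif and that of HERC6 held 0.

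The membrane restriction factors hold virus at the cell surface or block its entry. IFITM1, which acts against entry, had 2065 in ZNF521_DMSO against 1273 in CTL_DMSO, and 1640.1 in ZNF521_SAG against 1454 in CTL_SAG. IFITM3 had 16089 in ZNF521_DMSO against 12112 in CTL_DMSO, and 13477 in ZNF521_SAG against 12671 in CTL_SAG. Neither gene overlapped between the groups, and only IFITM1 had an unadjusted p of at most 0.05 (0.02, log2 fold change 0.42, SE 0.16, edgeR), with values of 0.26 to 0.58 when each library was left out in turn. BST2, which encodes tetherin, had 3952 in ZNF521_DMSO against 3194 in CTL_DMSO, but 3254 in ZNF521_SAG against 3758 in CTL_SAG. Its ratio was 1.24 (interval 1.18 to 1.30) with DMSO and 0.866 (0.827 to 0.907) with SAG, the lowest SAG ratio of the 42 genes. For IFITM2 the ratios were 1.29 with DMSO and 1.03 with SAG.

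All 7 genes of the remaining induced group had both ZNF521 libraries above both CTL libraries, as 13.3% of all genes did. For IFI35 the margin was slight, at 1110.3 in ZNF521_SAG against 1109.7 in CTL_DMSO. IFI27, a mitochondrial protein and the most abundant of the 42, had 26806 in ZNF521_DMSO against 18579 in CTL_DMSO, and 22341 in ZNF521_SAG against 19677 in CTL_SAG. IFI6, an antiviral protein of the endoplasmic reticulum, had 12943 in ZNF521_DMSO against 8934 in CTL_DMSO, and 10415 in ZNF521_SAG against 7656 in CTL_SAG. IFI6 had ratios of 1.45 with DMSO and 1.36 with SAG, and its log2 fold change was 0.48 (SE 0.17, unadjusted p = 0.0131, adjusted p = 0.888 by edgeR). IFI44L, which is often measured in interferon signatures of blood, had 3699 in ZNF521_DMSO against 2259 in CTL_DMSO, and 3574 in ZNF521_SAG against 2845 in CTL_SAG. RTP4, a Golgi chaperone of receptors, had 277 in ZNF521_DMSO against 144 in CTL_DMSO, and 232 in ZNF521_SAG against 211 in CTL_SAG. The DMSO pair again carried the difference in RTP4, whose SAG interval (0.910 to 1.33) included 1. IFI44 had ratios of 1.48 and 1.03 in the DMSO and SAG pairs, and IFI35 had 1.30 and 1.03, while XAF1 had a log2 fold change of 0.16.

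The 4 transcription factors varied in direction, and 0 of them had an unadjusted p of at most 0.05 between ZNF521 and CTL. Of all genes, 2.36% were higher and 3.11% lower at such a p. IRF1, an early regulator that also acts downstream of interferon gamma, had 1204 in ZNF521_DMSO against 1303 in CTL_DMSO, and 1066 in ZNF521_SAG against 1206 in CTL_SAG. The log2 fold change of IRF1 was -0.16 (SE 0.15, unadjusted p = 0.305 by edgeR). IRF7, which drives the interferon alpha genes, had 1889 in ZNF521_DMSO against 1425 in CTL_DMSO, and 1301 in ZNF521_SAG against 1199.9 in CTL_SAG. STAT2 had ratios of 0.980 with DMSO and 1.14 with SAG. IRF9, the DNA-binding partner of the STAT complex, had only 110.1 in ZNF521_DMSO against 156 in CTL_DMSO, and 118 in ZNF521_SAG against 93.6 in CTL_SAG. The exons of IRF9 overlap those of other annotated genes, one of them on the same strand, so its counts are uncertain. Exons of IFI6, IFIT2, IFITM1, IFITM2, DDX58 and TRIM22 also overlap those of annotated genes on the same strand, with the same uncertainty.

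PARP9, PARP14 and DTX3L, which act in ADP-ribosylation and ubiquitination after interferon, had 0 genes with an unadjusted p of at most 0.05. Over all genes 2.36% were higher and 3.11% lower in ZNF521 cells at such a p. PARP14 had 5169 in ZNF521_DMSO against 3688 in CTL_DMSO, and 5614 in ZNF521_SAG against 4972 in CTL_SAG. DTX3L had 2275 in ZNF521_DMSO against 2402 in CTL_DMSO, and 2291 in ZNF521_SAG against 2236 in CTL_SAG. For PARP14 both ZNF521 libraries were above CTL_DMSO and CTL_SAG, and for DTX3L the groups overlapped. PARP9 had ratios of 1.17 and 1.06 in the DMSO and SAG pairs, and it shares exon sequence with DTX3L on the opposite strand.

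The genes whose promoter held the motif had a median log2 fold change for ZNF521 over CTL of 0.34, and 11 of these 22 had an unadjusted p of at most 0.05. In the 11 matched genes without the motif the median was 0.14, and 2 had such a p. Of all genes tested, 2.36% were higher at such a p. These values were not computed for genes outside the list whose promoter held the motif. The ranges overlapped, between -0.03 and 0.69 with the motif and between -0.16 and 0.44 without it, and the difference was not tested. Half-sites at another spacing did not count as the motif. The promoters of RSAD2, DDX58 and XAF1, for example, hold GAAACGAAA and were placed among those without it.

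In the fit over both kinds of cells, SAG over DMSO gave no shared direction across the 42 genes. edgeR called 6 of 14970 genes (0.0401%) at an adjusted p of at most 0.05 and 0 of the 42, and DESeq2 and limma also called 0 of the 42. At an unadjusted p of at most 0.05, 1 of the 42 genes (2.38%) was higher with SAG, SAMD9, where 6.21% of all genes were, and 1 (2.38%) was lower, IRF7, where 5.12% of all genes were. The fitted log2 fold change was above 0 for 17 of the 42 genes (40.5%) and for 50.1% of all genes, with medians of -0.05 and 0.00055. Both SAG libraries lay above both DMSO libraries for SAMD9, IFIT5 and HERC6 (7.14% of the 42, 25.4% of all genes) and below for OAS3, STAT2 and IRF7 (7.14% of the 42, 22.7% of all genes).

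For SAMD9 the log2 fold change of SAG over DMSO was 0.71 (SE 0.21, unadjusted p = 0.00499, adjusted p = 0.391 by edgeR), and its SAG over DMSO ratio was 1.17 in ZNF521 cells and 2.34 in CTL cells. The low CTL_DMSO value enters this comparison as it does that of ZNF521 with CTL, and without CTL_DMSO the log2 fold change of SAMD9 was 0.12. For IRF7 it was -0.39 (SE 0.15, unadjusted p = 0.0204, adjusted p = 0.391 by edgeR), between -0.60 and -0.20 with each library left out in turn, with ratios of 0.689 in ZNF521 cells and 0.842 in CTL cells. The next by p on the higher side were DDX60 (0.37), IFIT5 (0.30) and PARP14 (0.27), and on the lower side DHX58 (-0.32), ISG20 (-0.34) and IFI6 (-0.27), all log2 fold changes. None of these 6 had an unadjusted p of at most 0.05.

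Within each kind of cells the SAG over DMSO values differed. In ZNF521 cells 8 of the 42 genes had a ratio above 1 (51.3% of all genes), with a summed ratio of 0.864 (exact 95% interval 0.858 to 0.870). In CTL cells 27 had one (51.0% of all genes), with a summed ratio of 1.03 (1.02 to 1.03). The counting interval lay wholly below 1 for 25 of the 42 genes in ZNF521 cells (15.2% of all genes) and for 9 in CTL cells (23.0%), and wholly above 1 for 3 (16.8%) and 21 (27.6%). These pairs share their libraries with the ZNF521 over CTL pairs, so they are the same 4 values of each gene read in another order.

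ZNF521_DMSO was the highest library for 31 of the 42 genes, and CTL_DMSO was the lowest for 25 and CTL_SAG for 14. The same counts were not made over all genes, among which CTL_DMSO also had the widest spread. The median log2 deviation of the 42 genes from their own mean over the libraries was 0.24 in ZNF521_DMSO, -0.19 in CTL_DMSO, 0.06 in ZNF521_SAG and -0.09 in CTL_SAG.

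**Figure D4:**
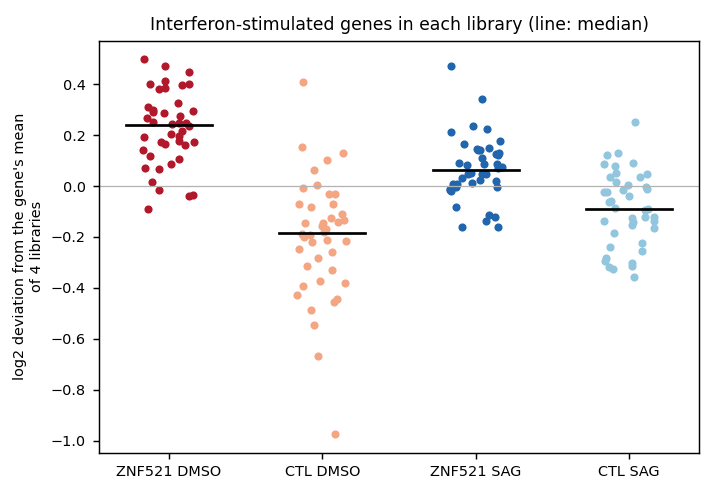
Log2 deviation of each of the 42 genes (points) from its mean over the 4 libraries, by library, with the median as a line. The medians are 0.24 in ZNF521_DMSO, -0.19 in CTL_DMSO, 0.06 in ZNF521_SAG and -0.09 in CTL_SAG, and the spread is widest in CTL_DMSO.

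Transcript GC content moved with the DMSO pair over all genes. When the genes tested were split into quintiles by GC content, the median log2 ratio of ZNF521_DMSO over CTL_DMSO was 0.27 in the quintile of lowest GC content and -0.12 in that of highest GC content. Over the interferon-stimulated genes of each quintile it was 0.63, 0.38, 0.38, 0.41 and 0.41, in order of rising GC content, and so above that of all genes in each quintile. In the SAG pair the medians of all genes lay between -0.03 and 0.01 in the quintiles, and those of the interferon-stimulated genes between 0.08 and 0.24. SAMD9, DDX60, SAMD9L and IFI44L, all with high ratios in the DMSO pair, are among the 8 genes of the lowest quintile. The rest of the 8 are IFI44 (ratio 1.48), DDX58 (1.41), IFIT5 (1.35) and EIF2AK2 (0.973). IFIT1 (1.94) and RTP4 (1.93), also with high ratios, have a higher GC content. The part of GC content in single genes was not tested.

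**Figure D5:**
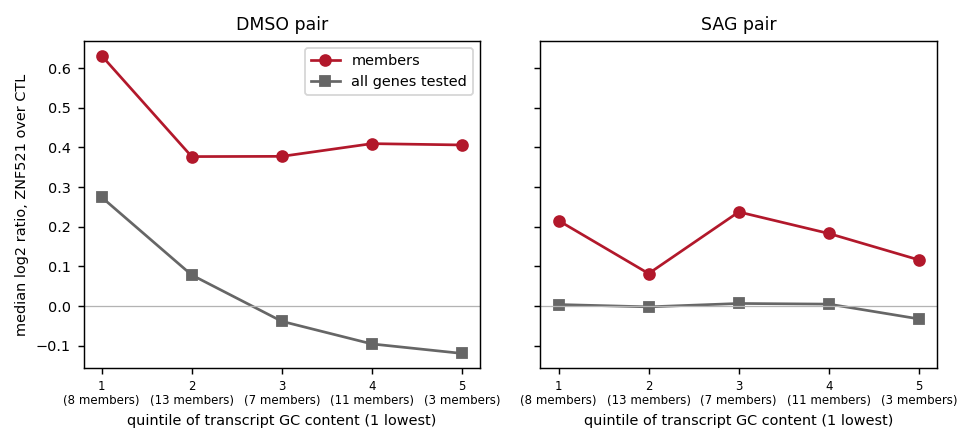
Median log2 ratio of ZNF521 over CTL by quintile of transcript GC content (1 is the lowest), for the interferon-stimulated genes and for all genes tested, in the DMSO pair on the left and in the SAG pair on the right. The quintiles hold 8, 13, 7, 11 and 3 of the 42 genes, and in each quintile and each pair their median lies above that of all genes.

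A further 56 genes of the pathway were listed, namely interferons, receptors and kinases, factors, sensing proteins and negative regulators, 38 of which had a row and 33 of which passed the floor on low counts. At an unadjusted p of at most 0.05, 1 of the 33 was higher in ZNF521 cells, IFNL1, where 2.36% of all genes were, and 0 were lower, where 3.11% were. The median log2 fold change of the 33 was 0.06. IFNL1 encodes interferon lambda 1, a type III interferon. It had 65.9 normalized counts in ZNF521_DMSO against 14.1 in CTL_DMSO, and 36.3 in ZNF521_SAG against 23.7 in CTL_SAG. Both ZNF521 libraries were above both CTL libraries, at 14 to 64 raw counts, and the log2 fold change was 1.40 (SE 0.39, unadjusted p = 0.00322, adjusted p = 0.679 by edgeR). It was the only gene of the 21 listed interferon genes to pass the floor. Of those, 5 had a row in the table, and the others were not analysed here.

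The receptor and kinase genes showed little difference between ZNF521 and CTL cells. IFNAR1, a chain of the type I receptor, had 708 in ZNF521_DMSO against 719 in CTL_DMSO, and 787 in ZNF521_SAG against 802 in CTL_SAG. Of the kinases, JAK1 had a log2 fold change of -0.03 and TYK2 one of -0.12. IFNAR2, the other chain, had only 11.1 to 14.3 normalized counts, and its exons are shared with an annotated readthrough gene, so its level is uncertain. IRF3, which is activated by the sensors without new synthesis, had a log2 fold change of 0.06. Among 28 further interferon-induced genes 24 had a log2 fold change above 0, where 49.4% of all genes did, and the median was 0.09. Of the 28, 0 had an unadjusted p of at most 0.05, where 2.36% of all genes were higher and 3.11% lower. For SAG over DMSO, TBK1, the kinase that activates IRF3, had 596 in ZNF521_SAG against 452 in ZNF521_DMSO, and 529 in CTL_SAG against 311 in CTL_DMSO (log2 fold change 0.58, unadjusted p = 0.00397 by edgeR). PARP10, of the further induced genes, had 2067 in ZNF521_SAG against 2552 in ZNF521_DMSO, and 1904 in CTL_SAG against 2443 in CTL_DMSO (log2 fold change -0.33, unadjusted p = 0.0395 by edgeR). Neither passed the adjusted threshold.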

How the data were processed

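RNA of 4 DAOY conditions was sequenced in strand-specific paired-end libraries. The authors aligned reads to hg38 and counted them with STAR 2.7.0e, by the submitters' processing notes, and deposited raw counts per gene. The authors also deposited a normalized table, signal values equal to those counts divided by size factors of 0.887 to 1.19 (DESeq2 median of ratios). The annotation and strand setting are not given in the sources used here.

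The floor was 10 raw counts in 2 or more libraries, and genes above it were tested in R 4.3.3 with edgeR 4.0.16 (TMM, glmQLFit and glmQLFTest), with ZNF521 and treatment as additive terms, which left 1 residual degree of freedom. DESeq2 1.42.0, limma 3.58.1, other scalings and filters, and fits without each library were alternatives. The main edgeR fit of each comparison was also run on simulated counts. The SE of an edgeR value was computed as the absolute log2 fold change divided by the square root of the test's F statistic. Ratios of 2 libraries used the authors' size factors and exact intervals (scipy 1.17.1). Transcript length and GC content came from GENCODE 44 canonical transcripts. The genes and lists were chosen with earlier results of these data known. Of the 42 genes, those were named with all 4 values that had an unadjusted p of at most 0.05, were among the 4 of smallest p in a direction, or among the 6 highest per kilobase, and up to 2 others per group were given as examples. Pathway genes named were IFNAR1, IFNAR2, JAK1, TYK2, IRF3 and those with such a p. Results of 1 further pathway gene are not reported here.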

Additional observations from a re-analysis of the deposited data

Results flagged for a closer look

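For these genes the effect of a factor had opposite signs at the levels of the other factor, with each ratio's counting interval on its own side of 1. With 1 library per condition, the difference was not tested. For ZNF521 over CTL this held for BST2, with a ratio of 1.24 in DMSO and 0.866 in SAG, a log2 difference of 0.51.

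For SAG over DMSO the same rule held for 11 genes, whose ratios all involve the CTL_DMSO and ZNF521_DMSO libraries named above. How many of all genes met the rule in either comparison was not counted, and abundant genes have narrow intervals. Among the IFIT genes, the ratio in ZNF521 cells minus that in CTL cells, on the log2 scale, was -0.64 for IFIT1 (0.808 in ZNF521 cells and 1.26 in CTL cells), -0.64 for IFIT2 (0.902 and 1.41) and -0.36 for IFIT3 (0.913 and 1.17). It was -0.52 for IFITM1, -0.32 for IFITM2 and -0.32 for IFITM3. It was -0.35 for IFI27, -0.47 for OASL, -0.51 for BST2 and -0.81 for RTP4, where SAG cells were lower than DMSO cells among ZNF521 cells and higher among CTL cells. EIF2AK2 went the other way, with a log2 difference of 0.31 (1.13 in ZNF521 cells and 0.916 in CTL cells).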

How the results depend on the processing

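Under edgeR the number of genes called for ZNF521 over CTL was 1, and it was 100 without the filter on low counts, 31 with limma, and 0 to 2341 when 1 library was left out. For the 42 interferon-stimulated genes these calls numbered 0, 2 without the filter, and 0 to 18 with a library left out. The count higher at an unadjusted p of at most 0.05 was 17, against 10 with DESeq2, 10 without the block, and 0 to 23 with a library left out, and the count lower was 0 to 1. For SAG over DMSO the genes called numbered 6, against 223 without the filter, 59 with limma, 0 without the block, and 3 to 4584 with a library left out. Of the 42 genes, 1 was called without the filter and 0 to 15 with a library left out. The count higher at an unadjusted p of at most 0.05 was 1, against 2 without the filter, 2 with limma, 0 without the block and 0 to 17 with a library left out, and the count lower was 1, against 0 with DESeq2 and 0 to 22 with a library left out. A fit on 3 libraries has the factor alone, so its spread comes from 1 pair of libraries and the lone library is assumed to vary alike. The counts at an unadjusted p moved over all genes too, also with a library left out. For ZNF521 over CTL the count higher over all genes was 354, against 75 with DESeq2 and 163 without the block. Without CTL_DMSO the median log2 fold change of the 42 genes for SAG over DMSO was -0.22, and without ZNF521_DMSO it was 0.16.

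The summed ratio in the DMSO pair was 1.37, against 1.35 with TMM, 1.35 with library size alone and 1.35 without IFI27. The summed SAG over DMSO ratio was 0.864 in ZNF521 cells, against 0.870 with TMM, and 1.03 in CTL cells, against 1.001 with library size alone. Of 319 alternative values for the genes named by p, 287 kept their direction and side of the adjusted threshold, 23 newly passed it and 9 changed sign. For ZNF521 over CTL these were HERC6, at 0.0046 without the filter and 0.0057 with limma, and at -0.113 to 0.115 with a library left out, DTX3L at -0.0897 to 0.0348 and IRF9 at -0.463 to 0.292. HERC6 changed sign without CTL_SAG and without ZNF521_DMSO, and DTX3L and IRF9 without CTL_DMSO. For SAG over DMSO they were DDX60 at -0.0965 (without CTL_DMSO) to 0.863, IFI6 at -0.523 to 0.0089 and ISG20 at -0.647 to 0.0169, the last 2 without ZNF521_DMSO. All 42 genes had a mean count of at least 50, so that floor changed no ratio. The labels carry no replicate number, so libraries were paired only by treatment, or by kind of cells, as the block of the model.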
